A study of Rattus norvegicus with 5 samples.

Results

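FRT cells, an epithelial line from the thyroid of the Fischer rat, form polarized sheets as 2D confluent monolayers and hollow follicles when they grow as 3D cultures in Matrigel, an extract of basement membrane. The 10 genes described here encode the matrix metalloproteinases Mmp2, Mmp7, Mmp9 and Mmp14, the metalloproteinase inhibitors Timp1, Timp2 and Timp3, and, from the plasminogen system, the activators Plau and Plat and the urokinase receptor Plaur. They were chosen by name, as enzymes, inhibitors and a receptor of pericellular proteolysis, and all 10 were found by RefSeq accession on the array, through 12 of its 30367 probes, among 15154 genes with a symbol.

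RNA was taken on day 5 of culture and hybridized to 5 2-colour arrays. On 4 of them the RNA of a separate 3D culture, labelled with Cy5, was set against a pool of RNA from 4 2D cultures, labelled with Cy3. On the other array the dyes were exchanged. It set the pooled 2D RNA, now in Cy5, against pooled RNA of the 3D cultures in Cy3, and holds no new culture. All samples came from 1 line, and the labels name no treatment or genotype that differed between them. All values below are log2 ratios of 3D over 2D, so that a positive value is a higher level in follicles. The pool in place of separate 2D cultures means that the spread between 2D cultures was not measured, and p-values refer to the spread between arrays.

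Matrix metalloproteinases are secreted or membrane-bound zinc proteases that cleave collagens, laminins and other matrix proteins, and most are made as inactive proforms. Tissue inhibitors of metalloproteinases bind their catalytic site, and Timp2 also takes part in activation. Timp2 held by membrane-bound Mmp14 is an anchor for proMmp2, and another Mmp14 molecule cleaves the proform. The plasminogen activators Plau and Plat convert plasminogen to plasmin, a broad protease, and Plaur holds Plau at the cell surface.

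Between 45.0% and 50.9% of probes lay above background in a condition on each array, and no spot was saturated. Across all probes, log2 ratios of the replicate arrays correlated with r from 0.85 to 0.92, whereas the swapped array correlated with them with r from 0.67 to 0.71. Whether the 5 arrays shared 1 slide or 1 scan was not computed here. Of the marker lists, 8 of 8 epithelial genes were above background on every array in both conditions, as were 3 of 8 thyroid genes (Pax8, Foxe1 and Hhex). The epithelial list was not steady: 3 genes rose in 3D, with fitted log2 ratios of 1.23 (Krt19), 0.88 (Ocln) and 0.28 (Epcam). Cldn4 fell, at -0.48, and the other 4 did not pass. Pax8 was the 1 thyroid gene that passed, at a fitted 0.71. Its replicates gave 0.65 to 1.02, but the array with exchanged dyes only 0.05. Nkx2-1, Tg, Tshr and Slc5a5, which define differentiated thyrocytes, were above background on 0 arrays. Of the fibroblast genes 3 of 8 were above background throughout, with Dcn, Lum, Thy1 and Pdgfrb on 0 arrays, and the median log2 ratio of that list was -0.05 to 0.11 per array. Pdgfra, a fibroblast gene above background throughout, was higher in 3D (0.53 to 0.62 on the replicates, 0.45 on the swapped array, fitted 0.55, limma adjusted p = 6.59e-06). Of the leukocyte genes 1 of 7 was above background throughout (Cd14), and it did not pass (fitted 0.20, limma adjusted p = 0.234). Of 6 endothelial genes, 2 were above background on every array in 3D (Cdh5 and Eng) and 0 in 2D. In 2D Cdh5 was above background on 3 arrays and Eng on 2, and their fitted log2 ratios of -0.03 and 0.12 did not pass. The part of these markers in the results below was not tested.

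In follicles, Mmp14 and Mmp7 were higher and Mmp2, Timp2 and Plaur were lower, whereas Mmp9, Timp1, Timp3, Plau and Plat did not pass the test. In bulk RNA, fewer cells of a kind and less RNA per cell cannot be told apart. The test was limma's moderated test over the 5 arrays, with p-values adjusted over all probes and a threshold FDR of 0.01. Thus 2 of 10 genes were higher and 3 of 10 lower. Over all genes, each read from its brightest probe, 25.3% passed, 14.1% higher and 11.2% lower. Over all probes 22% passed, 10.6% higher and 11.4% lower, compared with 2 higher and 5 lower of the 12 probes here. Of the 10 genes, 6 were above background in both conditions on all 5 arrays, and in genes of that kind 47.9% passed, 26.3% higher and 21.6% lower. Of these 6, Mmp14 was higher, Mmp2, Timp2 and Plaur were lower, and Timp1 and Plat did not pass. When arrays were centred on their medians instead of loess, 0 of the 10 genes and 0 of all probes passed. Plaur then turned to 0.03. The median of all probes was -0.11 in that setting. The 6 genes above background throughout moved up instead, for example Timp2 from -1.15 to -0.71 and Plat from 0.16 to 0.66. With loess, the median log2 ratio of the 10 genes was 0.01, compared with 0.00 over all genes.

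**Figure D1:**
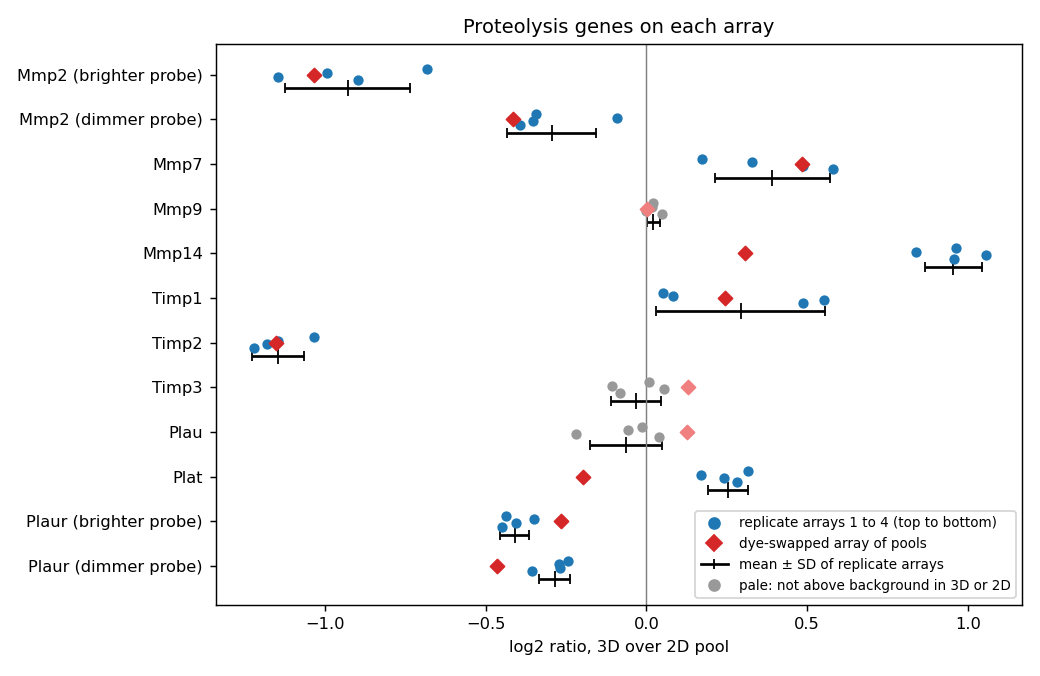
Log2 ratio of 3D over 2D (horizontal axis) for each of the 12 probes, with 1 point per replicate array, a diamond for the dye-swapped array of pools and, below the points, the mean ± SD of the 4 replicate arrays. Timp2 lies between -1.03 and -1.22 and the brighter Mmp2 probe between -0.68 and -1.15, Mmp14 lies near 1 on the replicates and at 0.31 on the swapped array, and the pale points of Mmp9, Timp3 and Plau mark probes that were not above background in either condition.

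Mmp14 (membrane type 1 metalloproteinase), the membrane-anchored collagenase that activates proMmp2, was higher in follicles. Its log2 ratios on replicate arrays 1 to 4 were 0.96, 0.84, 1.05 and 0.96, and the swapped array gave 0.31. All 5 arrays had the same sign, and the 4 replicate arrays lay close together and well above the swapped one. The fitted log2 ratio was 0.82 ± 0.09 (SE, n = 5 arrays), a 1.77-fold higher level (limma adjusted p = 7.50e-05). In a model with a term for the dye the log2 ratio was 0.63, and the dye effect itself was 0.32 (limma adjusted p = 0.00842). With 1 swapped array, the dye and any other feature of that array cannot be told apart. The spot signals behind these ratios were 1194 to 1456 for 3D and 235 to 286 for the 2D pool on the replicate arrays, over local backgrounds of 51.8 to 55.1 and 19.2 to 20.8, and Cy5 and Cy3 signals are not on 1 scale. The array carries 10 spots of the Mmp14 probe, whose SD within an array was 0.05 to 0.11, similar to the SD of 0.09 between replicate arrays.

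Mmp2 (gelatinase A), the type IV collagen-cleaving protease whose proform Mmp14 activates, was lower in follicles by both of its probes. The brighter probe gave -0.68, -0.99, -1.15 and -0.90 on replicate arrays 1 to 4 and -1.03 on the swapped array. Every array showed less Mmp2 in 3D, and the swapped array lay among the replicates. The fitted log2 ratio was -0.95 ± 0.06 (SE, n = 5 arrays), a 1.93-fold lower level (limma adjusted p = 2.18e-06). It was -0.54 with median centring (limma adjusted p = 0.269). The dimmer probe gave -0.34, -0.09, -0.35 and -0.39 on the replicates and -0.41 on the swapped array, with a fitted value of -0.32 (limma adjusted p = 0.00116). The 2 probes thus had the same direction and differed in size. The dimmer one was above background in 3D on 2 of 5 arrays, with a 3D signal of 74 to 92 on the replicate arrays over a background of 50 to 55.5. The offset of 50 added to all signals draws such dim ratios towards 0, and without it the fitted values were -1.18 for the brighter probe and -0.79 for the dimmer (limma adjusted p = 0.0119, above the threshold).

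Mmp7 (matrilysin), a small metalloproteinase made mainly by epithelial cells, was above background in 3D on 5 of 5 arrays and in 2D on 0 of 5. Its log2 ratios were 0.17, 0.33, 0.49 and 0.58 on replicate arrays 1 to 4 and 0.48 on the swapped array. The arrays all favoured 3D, with the lowest value on replicate array 1 and the highest on replicate array 4. The fitted value was 0.41 ± 0.06 (SE, n = 5 arrays; limma adjusted p = 0.000435). At the measured signals this was a 1.33-fold higher level in 3D. As 2D was not well above background, the size of the difference is uncertain. The signals were faint in 3D too, at 88 to 123 on the replicate arrays over a background of 51 to 55.5, and without the offset the fitted log2 ratio was 1.28. The 250 bases before the Mmp7 start are shown because they hold 3 of the 5 motifs searched, AP-1 among them (RefSeq, GRCr8, chr8:13132793-13133042, plus strand). Capitals mark, in order, a TATA box (TATAAA), a PEA3/ETS motif (AGGAAG, here as its reverse complement), an AP-1 motif (TGAGTCA or TGACTCA) at positions -80 to -74, and a second TATA box at -43 to -38, counted from the start.
Mmp7: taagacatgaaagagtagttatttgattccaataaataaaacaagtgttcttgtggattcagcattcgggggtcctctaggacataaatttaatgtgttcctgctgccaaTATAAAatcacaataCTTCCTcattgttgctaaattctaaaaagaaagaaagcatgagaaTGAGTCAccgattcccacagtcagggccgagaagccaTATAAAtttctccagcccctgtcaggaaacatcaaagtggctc
Both strands were searched. Of 33469 rat promoters, 4.05% held an AP-1 motif, 29.5% a PEA3/ETS motif and 12.9% a TATA box in the same 250 bases. A match is a run of letters and was not tested as a binding site.

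Mmp9 (gelatinase B), whose proform Timp1 binds, was not above background on any array in either condition. The 10 spots of its probe averaged 56.3 to 60.3 for 3D on the replicate arrays, over backgrounds of 51.9 to 55.0. Its log2 ratios were 0.02, 0.02, -0.00 and 0.05 on the replicates and 0.00 on the swapped array (fitted 0.02, limma adjusted p = 0.808). A difference between 3D and 2D was not detectable at this signal.

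**Figure D2:**
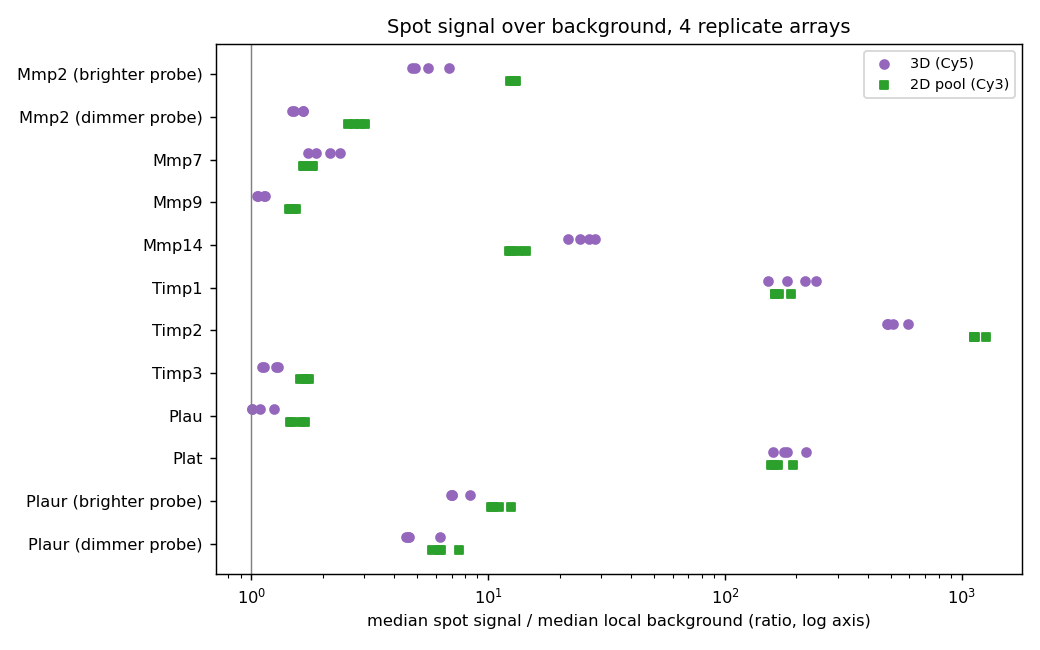
Median spot signal divided by median local background (log axis) of each probe on the 4 replicate arrays, with circles for 3D (Cy5) and squares for the 2D pool (Cy3). The 2 dyes have different backgrounds and scales, so the circles and squares show how far each side stands above its own background, not their ratio, and probes are not ranked against each other. The 3D points of Mmp9, Timp3 and Plau sit near 1.

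Timp2, the inhibitor that also anchors proMmp2 to Mmp14, was lower in follicles. Its log2 ratios were -1.03, -1.15, -1.18 and -1.22 on replicate arrays 1 to 4 and -1.15 on the swapped array. The 5 values lay close together, and the swapped array fell inside the range of the replicates. The fitted log2 ratio was -1.15 ± 0.04 (SE, n = 5 arrays), a 2.21-fold lower level (limma adjusted p = 7.45e-08). It was -1.15 with a dye term and -0.71 with median centring (limma adjusted p = 0.309). Signals of 25037 to 31508 for 3D and 21971 to 26780 for the 2D pool on the replicate arrays were far above background. The swapped array gave 8837 for 3D and 64082 for 2D. As for Mmp14, Cy5 and Cy3 signals are not on 1 scale, so these raw signals do not give the ratio. The 250 bases before the Timp2 start are shown for contrast with Mmp7 (RefSeq, GRCr8, chr10:104089215-104089464, minus strand).
Timp2: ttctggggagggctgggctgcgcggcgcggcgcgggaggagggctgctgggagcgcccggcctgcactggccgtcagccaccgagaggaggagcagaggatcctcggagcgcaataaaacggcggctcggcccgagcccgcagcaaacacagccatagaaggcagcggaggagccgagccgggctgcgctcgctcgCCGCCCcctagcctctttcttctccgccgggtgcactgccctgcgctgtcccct
Of the motifs searched only a GC box (GGGCGG, here as its reverse complement in capitals, at -54 to -49) was found, a motif that 30.5% of promoters held. The sequence was 72.0% G and C with 27 CG pairs, compared with 38.8% and 3 for Mmp7 and medians of 51.2% and 5 over all promoters.

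Timp1, the inhibitor that binds proMmp9, had unequal ratios on the replicate arrays. Its log2 ratios were 0.05 and 0.08 on replicate arrays 1 and 2, 0.55 and 0.49 on replicate arrays 3 and 4, and 0.24 on the swapped array of pools. All were above 0, but arrays 1 and 2 were near no difference while 3 and 4 were clearly higher in 3D. The fitted value of 0.28 ± 0.08 (SE, n = 5 arrays) did not pass at an FDR of 0.01 (limma adjusted p = 0.0176), and its range over leaving out each replicate was 0.22 to 0.34. The 10 spots of the probe on each array had an SD of 0.04 to 0.09, compared with an SD of 0.26 between the replicate arrays. The SD between replicates lay above that of 98.7% of all probes. Each culture was read on 1 array, so a culture and its labelling and hybridization cannot be told apart. Of the markers, Cd14 ran from -0.10 and 0.17 on replicate arrays 1 and 2 to 0.58 and 0.57 on 3 and 4, with -0.20 on the swapped array. Col3a1 ran the other way, with 1.09, 0.78, -0.07 and -0.10. Both were named after their values were seen. The other leukocyte genes were not above background throughout and lay between -0.32 and 0.12 over the replicates. Over the replicates the other fibroblast genes above background in 3D were 0.53 to 0.62 (Pdgfra), 0.01 to 0.22 (Col1a1) and -0.25 to -0.14 (Col1a2). The part of these markers in the Timp1 values was not tested.

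**Figure D3:**
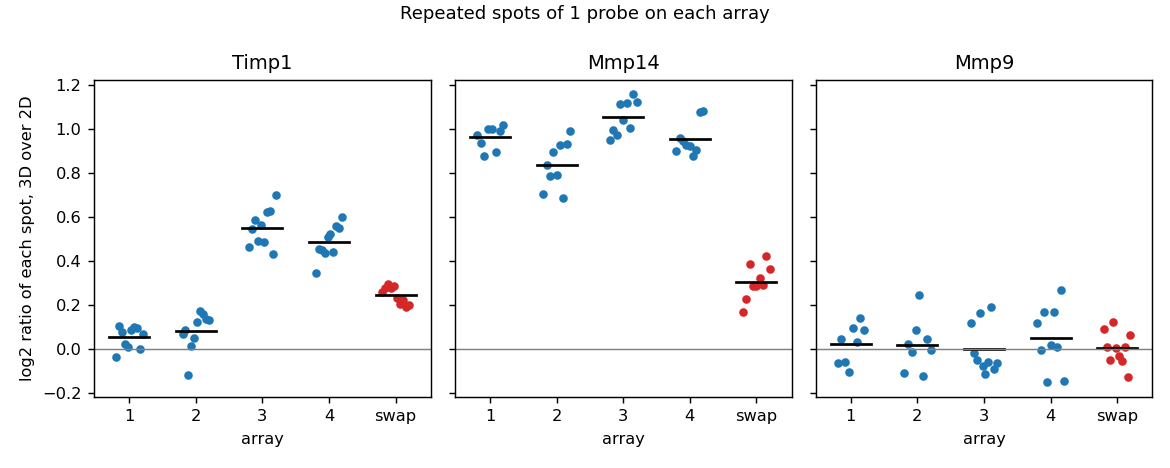
Log2 ratio of 3D over 2D of each spot of the probes for Timp1, Mmp14 and Mmp9, which the array carries 10 times, by array, without spots marked as outliers and with a line at the mean of the spots. The spots of Timp1 form tight groups that differ between arrays 1 and 2 and arrays 3 and 4, those of Mmp14 are higher on the replicate arrays than on the swapped array, and those of Mmp9 scatter around 0.

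Timp3, the matrix-bound inhibitor that also acts on ADAM proteases, was not above background on any array in either condition. Its log2 ratios were 0.01, -0.11, 0.05 and -0.08 on the replicates and 0.13 on the swapped array (fitted -0.00, limma adjusted p = 0.997). The values lay on both sides of 0.

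Plau (urokinase), the activator that Plaur binds, was not above background on any array. Its 3D signals on the replicate arrays were 57.0 to 65.8 over backgrounds of 53.0 to 59.0. The log2 ratios were -0.01, -0.06, -0.22 and 0.04 on the replicates and 0.13 on the swapped array (fitted -0.03, limma adjusted p = 0.790).

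Plat (tissue-type plasminogen activator) was above background in both conditions on all 5 arrays. Its log2 ratios were 0.32, 0.17, 0.24 and 0.28 on replicate arrays 1 to 4 and -0.20 on the swapped array. The 4 cultures were thus slightly higher in 3D with Cy5, and the array with the dyes exchanged gave the opposite sign. The fitted value of 0.16 ± 0.07 (SE, n = 5 arrays) did not pass (limma adjusted p = 0.130), and the dye term was 0.22 (limma adjusted p = 0.0244) with a remaining 3D log2 ratio of 0.03. Without the swapped array the log2 ratio was 0.25 and passed (limma adjusted p = 0.000892), so the call turned on that array. Plg, plasminogen itself, was also above 0 on the replicates and below 0 on the swapped array, with 0.16, 0.26, 0.25 and 0.22 on the replicates and -0.20 on the swapped array (limma adjusted p = 0.184; named after its values were seen).

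Plaur, the receptor that holds Plau on the cell surface, was lower in follicles by both probes after loess, whereas its brighter probe gave 0.03 with median centring. The brighter probe gave -0.44, -0.35, -0.40 and -0.45 on replicate arrays 1 to 4 and -0.26 on the swapped array. The dimmer probe gave -0.24, -0.27, -0.27 and -0.35, and -0.47 on the swapped array. Every value of both probes was below 0, and on the swapped array the order of the probes was turned. The fitted log2 ratios were -0.38 ± 0.05 and -0.32 ± 0.05 (SE, n = 5 arrays), or 1.30-fold and 1.25-fold lower (limma adjusted p = 9.61e-05 and 0.000427). The 250 bases before the Plaur start are shown because they hold, as those of Mmp7 do, an AP-1 motif and PEA3/ETS motifs (capitals; RefSeq, GRCr8, chr1:89181113-89181362, plus strand).
Plaur: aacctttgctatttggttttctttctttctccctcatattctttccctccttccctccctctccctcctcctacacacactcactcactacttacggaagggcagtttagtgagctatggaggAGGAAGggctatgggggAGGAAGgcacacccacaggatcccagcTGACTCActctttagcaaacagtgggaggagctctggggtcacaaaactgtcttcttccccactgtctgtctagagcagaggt
The AP-1 motif lay at -83 to -77, close to its place in the Mmp7 sequence, and the PEA3/ETS motifs at -127 to -122 and -110 to -105. The 2 genes moved in opposite directions. Of the 10 genes, 6 had a promoter in the RefSeq table used (Mmp7, Timp1, Timp2, Timp3, Plau and Plaur), and AP-1 was found in these 2. The NF-kB motif was found in 0 of the 6 and in 0.164% of all promoters.

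Changes of an enzyme and its partner were compared within each array, as the difference of their log2 ratios, for 8 pairs. Mmp14 minus Timp2 was 2.00, 1.99, 2.23 and 2.18 on replicate arrays 1 to 4 and 1.46 on the swapped array, with a mean of 2.10 ± 0.13 (SD, n = 4). The difference was above 0 on every array and larger than the spread between replicates. Mmp2 minus Timp2 was 0.35, 0.15, 0.03 and 0.32, and 0.12 on the swapped array, with a mean of 0.22 ± 0.15 (SD, n = 4), and both genes fell on each array. Mmp14 minus Timp1 was 0.91, 0.76, 0.50 and 0.47, and 0.06 on the swapped array, with a mean of 0.66 ± 0.21 (SD, n = 4). For each of these 3 pairs the exact two-sided sign-flip permutation test gave p = 0.13, the smallest that 4 arrays allow, and 0.143 after Benjamini-Hochberg adjustment over the 8 pairs. Mmp9 minus Timp1, Plau minus Plaur and Plau minus Plat each hold a gene that was not above background (Mmp9 or Plau), and their means lay between -0.32 and 0.35. These are differences in change, not in level, since signals of different probes are not on 1 scale.

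Genes of related proteolytic systems were read from a list of 87, of which 71 were measured and 39 were above background on at least 1 array. Of the 71, 17 were higher and 5 lower in follicles, and their median log2 ratio was 0.01. Over all genes 14.1% were higher and 11.2% lower, and over genes above background throughout, as 31 of the 71 were, 26.3% and 21.6%. Of the 17 other metalloproteinases measured, 11 were not above background on any array, 1 was higher and 2 were lower. Mmp24 (membrane type 5 metalloproteinase) was lower on all 5 arrays, from -0.56 to -0.79 on the replicates and -1.03 on the swapped array (fitted -0.75, limma adjusted p = 1.17e-05). Mmp19 was lower at -0.28 (limma adjusted p = 0.00201), but not past the threshold without replicate 1 or 2 (limma adjusted p = 0.0108 and 0.0129). Mmp11 (stromelysin 3) was higher at 0.24 (limma adjusted p = 0.00541) although the swapped array gave 0.05. Among ADAM and ADAMTS proteases, Adam15 and Adamts7 were the 2 that passed of 12 measured, at 0.47 and 0.28 (limma adjusted p = 0.000652 and 0.00129). Without the offset neither passed (limma adjusted p = 0.0239 and 0.0155), nor did they with Agilent's processed signals (limma adjusted p = 0.0260 and 0.0131). Furin, the proprotein convertase that activates Mmp14, was 0.26 higher (limma adjusted p = 0.00629). Without any 1 of the replicates, Mmp11 and Furin did not pass, with limma adjusted p of 0.0218 to 0.0278 for Mmp11 and 0.0128 to 0.0350 for Furin.

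Membrane serine proteases, Kunitz inhibitors and genes of the hepatocyte growth factor system formed 1 group, with 6 of 10 genes higher and 0 lower. Over all genes 14.1% were higher, and 26.3% over genes above background throughout, as 8 of the 10 were. Tmprss2, a transmembrane serine protease of epithelial cells, gave 1.90, 2.14, 2.11 and 2.11 on replicate arrays 1 to 4 and 2.15 on the swapped array. Its fitted log2 ratio of 2.08 ± 0.05 (SE, n = 5 arrays), a 4.23-fold higher level, was the largest rise in the list of 71 (limma adjusted p = 5.24e-09). Spint2, a Kunitz inhibitor of such proteases, was higher at 0.87 (limma adjusted p = 3.12e-07), with 0.79 to 0.92 on the replicates and 0.94 on the swapped array. The other 4 that passed, all named after their values were seen, were Tmprss4, St14 (matriptase), Prss8 (prostasin) and Hgfac (hepatocyte growth factor activator). Tmprss4 did not keep 1 sign, with -0.17 to 1.13 over the replicates.

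Among plasminogen receptors and clearance receptors, Anxa2 (annexin A2) was higher and its partner S100a10 lower, although S100a10 was 0.24 with median centring in place of loess. Anxa2 gave 1.47, 1.49, 1.45 and 1.52 on the replicates but 0.43 on the swapped array (fitted 1.27, limma adjusted p = 5.70e-05), with a dye term of 0.52 (limma adjusted p = 0.00154). S100a10 was -0.24 (limma adjusted p = 0.00312) and did not pass without replicate 2, 3 or 4, with limma adjusted p of 0.0168 to 0.0184. Lrp1, the receptor that clears activator and inhibitor complexes, was higher at 0.53 (limma adjusted p = 3.31e-05). Of the serpins, 1 of 7 passed, compared with 25.3% over all genes, and 5 of the 7 were not above background on any array. The 1 was Serpini1 (neuroserpin), an inhibitor of Plat, at 0.26 (limma adjusted p = 0.00545). Serpini1 did not pass without replicate 1, 2 or 4, with limma adjusted p of 0.0160 to 0.0277. Nor did it pass in the authors' table or without the offset (limma adjusted p = 0.0163 and 0.0555). A second Serpini1 probe, above background throughout, was 0.02 with signs on both sides of 0 (limma adjusted p = 0.832), and the mean of both probes was 0.14 (limma adjusted p = 0.0546).

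Of the cathepsins and related genes with heparanase, 4 of 10 were higher and 2 lower, and 8 of the 10 were above background throughout, where 26.3% of genes were higher and 21.6% lower. Hpse (heparanase), which cleaves heparan sulphate of the matrix, was higher at 1.18 by its brighter probe, with 1.04 to 1.33 on the replicates (limma adjusted p = 1.36e-07). A dimmer Hpse probe was above background in 3D on 5 arrays and in 2D on 0. Ctsh (cathepsin H) was higher at 1.03 (limma adjusted p = 1.21e-06). Ctsl (cathepsin L), a lysosomal and secreted cysteine protease, was lower at -1.07 (limma adjusted p = 1.41e-05), and Cst6 (cystatin E/M), an inhibitor of cysteine proteases, was lower at -1.41 (limma adjusted p = 1.00e-06). On the swapped array Ctsl was -0.57 and Cst6 -1.80, compared with -1.03 to -1.38 and -1.16 to -1.51 on the replicates.

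**Figure D4:**
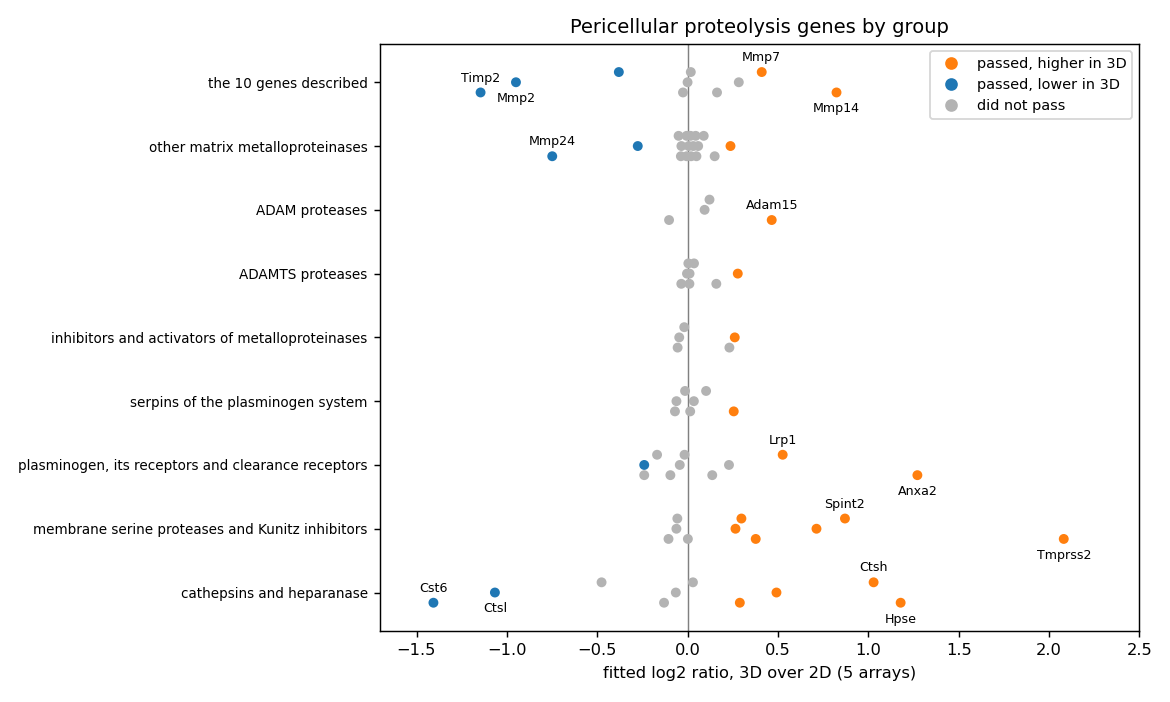
Fitted log2 ratio of 3D over 2D (horizontal axis, 5 arrays) of each measured gene of the 10 described and of the 8 related groups, coloured by whether it passed at an FDR of 0.01 and in which direction. Tmprss2 stands farthest to the right at 2.08, Cst6 farthest to the left at -1.41, and the 17 other metalloproteinases lie mostly near 0.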

How the data were processed

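RNA of 4 3D cultures, a 2D pool and a 3D pool was read on 5 rat arrays designed on build rn4. The authors' scanner files, made with Agilent Feature Extraction 10.7.3.1 per the file headers, hold median spot and background intensities without normalization. Agilent's processed intensities in these deposited files were background-subtracted and dye-normalized by that software, and its deposited log10 ratios are Cy5 over Cy3 of them. The authors' table of log2 ratios was made with normexp, loess, quantiles and limma, according to their methods and processing notes. All 5 of its columns ran 3D over 2D (r = 1 with the scanner files processed in that way) and had medians of -0.01 to 0.00.

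Median signals were corrected by normexp (offset 50), then by loess (control spots at weight 0) and by quantiles of average intensity, in R 4.3.3 with limma 3.58.1. Spots marked as outliers (1.12% to 1.60%) were left out and spots of a probe averaged. Of 30367 probes, 17998 had a symbol from the RefSeq table of GRCr8, matched by accession. The brightest probe stood for a gene, and other probes of the 10 genes are given beside it. A probe counted as above background where at least 50% of its spots were. The limma fit had 1 coefficient over 5 arrays, after the sign of the swapped array was turned, and Benjamini-Hochberg adjustment over all probes at an FDR of 0.01. That array had the same weight as the rest, although its RNA was pooled from the same cultures. The fit was tested on simulated data. Within-array differences of 8 pairs were tested by an exact sign-flip permutation test, of which 2 are not reported here.

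The 10 genes, the lists and the tests were chosen with earlier results of these data known. From each related group the text names at most 2 genes that rose and 2 that fell, those with the largest change among genes that passed and had the same sign on all 5 arrays. Genes outside this rule, cell type markers aside, are marked as named after their values were seen. Of 87 listed genes, 16 had no matched probe and were left out. The alternatives are given in the closing section. The number of arrays limits the precision.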

Additional observations from a re-analysis of the deposited data

Results flagged for a closer look

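Of 34 probes and pairs examined over the 4 replicate arrays, 3 had 1 array whose gap to its nearest neighbour, divided by the range, exceeded Dixon's 95% critical value. Chance gives about 1 in 20. Replicate 1 was lowest for Tmprss2 (1.90, ratio 0.885) and for Ctsh (0.78, ratio 0.849). The dimmer Mmp2 probe was -0.0900 on replicate 2 (ratio 0.839), where the brighter Mmp2 probe was -0.99.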

How the results depend on the processing

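Of 17 alternatives, 14 gave the same 2 genes higher and 3 lower as reported. Without the swapped array 3 were higher (Plat added), and at an FDR of 0.05 also 3 (Timp1 added). Mmp2, Mmp7, Mmp14, Timp2 and Plaur each passed in 16 alternatives. In the remaining one, median centring of each array in place of loess, 0 of the 10 genes were higher and 0 lower, 0 and 0 of the related genes, and 0 and 0 of all probes. At an unadjusted p under 0.05 limma then had 5367 probes and 3 of the 10 genes. Under it 24032 probes had a dye effect and the median of all probes moved to -0.11. Plaur was then 0.0327, S100a10 0.243 and Mmp9 -0.198.

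Without the normexp offset, 7 related genes were higher, and 1419 probes were higher and 1796 lower, compared with 17, 3227 and 3463. With Agilent's processed signals 1909 probes were higher. Related genes called lower were 8 without the swapped array and 8 at an FDR of 0.05, compared with 5. Higher calls made up 42.2% to 48.2% of calls over the scalings that gave any. Leaving out each replicate in turn gave 2 and 3 of the 10 genes, 12 to 15 related genes higher and 3 to 4 lower, and 2391 to 2587 probes higher and 2726 to 2975 lower. The cause of these shifts was not tested.

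For genes not above background the sign changed with the setting. Mmp9 was -0.0113 with processed signals. Plau was 0.117 with processed signals, 0.0310 with a dye term and -0.0416 to 0.0228 over leaving out each replicate. Timp3 was 0.0011 with quantiles over all channels, 0.000918 in the authors' table, 0.0479 with a dye term and -0.0141 to 0.0266 over leaving out each replicate. Averaging all probes of a gene and fitting 1 probe per gene gave no counts over all probes, and removal of dim probes left 7 of the 10 genes. No paired analysis was possible because the 2D cultures were hybridized as 1 pool.

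Dim signals limit Mmp7, Mmp9, Timp3, Plau and the dimmer Mmp2 probe. Over the alternatives the log2 ratio ranged from 0.37 to 2.10 for Mmp7, 0.63 to 1.32 for Mmp14, -1.26 to -0.54 for Mmp2 and -1.27 to -0.71 for Timp2.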
